A study of Mus musculus with 20 samples.

Results

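Rnf213 and 5 genes of the interferon pathway (Stat2, Irf9, Irf3, Adar and Eif2ak2) were followed in mouse embryonic stem cells with different forms of Trim71. These 6 genes are 6 of the 13283 gene symbols of the deposited table. They were chosen by name, in part because Rnf213 is lower both in Trim71-KO cells and in cells homozygous for the R595H change of Trim71, so those differences of Rnf213 are given as descriptions, without a test. Bulk mRNA sequencing gave 20 libraries of C57BL/6 cells recorded as male and grown in serum with LIF and 2i. Trim71-cond cells (genotype Trimfl/fl, a floxed Trim71) and Trim71-KO cells had 4 libraries each, with the codes 1A, 2B, 3A and 3B. In a separate set of clones, 3 were wild type (WT; C16, C7, C5), 3 carried Trim71 R595H on 1 allele (R595H/+; C15, C21, C23) and 3 carried it on both (R595H/R595H; C14, C20, C24). C16, C15 and C14 had a library from 20/1 and another from 5/2, which were averaged, so that the clone was the replicate. The sources used here do not state the deleted stretch of Trim71, how the recombinase was delivered or whether the conditional libraries come from separate deletions, so p-values there measure the spread between libraries. The series sets the loss of Trim71 beside its point change.

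TRIM71 is an RNA-binding protein and ubiquitin ligase of pluripotent cells that lowers the level or translation of bound transcripts. RNF213 is a very large protein with a AAA+ ATPase core and a ubiquitin ligase module, linked to the cerebral artery disorder moyamoya and to defence against microbes, and its gene is induced by interferon in many cell types. Type I interferon acts through a receptor, its kinases and a complex that holds STAT2 and IRF9, which binds interferon-stimulated response elements (ISREs) and switches on interferon-stimulated genes. IRF3 drives interferon transcription after RNA or DNA sensing, PKR (from Eif2ak2) halts translation on binding double-stranded RNA, and ADAR edits such RNA. Embryonic stem cells are known for a weak interferon response.

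The RefSeq promoter windows (GRCm38.p6, from 250 bases before to 50 bases after each start) are shown to set Rnf213 beside the members whose windows hold the core of an ISRE. Capitals mark the loose core GAAANNGAA on either strand, a form of the motif chosen after the data were seen. The Rnf213 window is chr11:119389849-119390148 (plus strand), that of Stat2 is chr10:128270248-128270547 (plus), that of Eif2ak2 is chr17:78882523-78882822 (minus) and the third window of Adar is chr3:89730468-89730767 (plus).
Rnf213: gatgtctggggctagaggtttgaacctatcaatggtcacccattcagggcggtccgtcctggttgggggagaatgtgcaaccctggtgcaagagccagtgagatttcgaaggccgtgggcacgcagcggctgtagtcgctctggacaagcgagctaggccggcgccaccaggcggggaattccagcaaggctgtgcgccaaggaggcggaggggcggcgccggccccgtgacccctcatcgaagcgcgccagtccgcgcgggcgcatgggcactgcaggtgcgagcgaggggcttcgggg
Stat2: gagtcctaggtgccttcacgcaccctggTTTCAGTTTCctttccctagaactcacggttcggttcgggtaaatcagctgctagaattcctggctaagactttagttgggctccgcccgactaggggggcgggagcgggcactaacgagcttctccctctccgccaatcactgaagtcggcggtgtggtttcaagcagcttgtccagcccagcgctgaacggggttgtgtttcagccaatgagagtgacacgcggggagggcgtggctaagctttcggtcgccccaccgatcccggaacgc
Eif2ak2: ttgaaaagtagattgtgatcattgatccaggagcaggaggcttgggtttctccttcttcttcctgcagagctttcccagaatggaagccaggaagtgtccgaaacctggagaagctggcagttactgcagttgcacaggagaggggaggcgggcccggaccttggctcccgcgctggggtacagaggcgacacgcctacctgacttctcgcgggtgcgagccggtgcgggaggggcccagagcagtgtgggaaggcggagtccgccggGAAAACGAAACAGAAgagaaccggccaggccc
Adar, window 3: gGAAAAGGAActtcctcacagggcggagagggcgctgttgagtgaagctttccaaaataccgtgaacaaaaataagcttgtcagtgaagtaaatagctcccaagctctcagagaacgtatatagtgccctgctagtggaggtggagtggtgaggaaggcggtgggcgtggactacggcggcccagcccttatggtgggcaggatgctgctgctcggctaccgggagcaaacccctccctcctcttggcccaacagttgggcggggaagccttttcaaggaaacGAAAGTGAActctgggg

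The capitals show where these windows differ. In Eif2ak2 the core lies just after the start, at bases 269 to 277 of the 300, and a second copy overlaps its end at bases 275 to 283. In Stat2 it lies on the minus strand at bases 30 to 38, and in Adar it stands at bases 2 to 10 and again at 284 to 292. A stricter core, the same letters followed by a further A, was found in Eif2ak2 (bases 269 to 278) and in Stat2 (minus strand, bases 29 to 38; its last base is in capitals too). The interferon-gamma element core TTCNNNGAA stands at bases 73 to 81 of Eif2ak2 and at 273 to 281 of the third Adar window, apart from the capitals. The windows of Rnf213, Irf3 and Irf9 and the other windows of Adar held none of these letters, which says only that they are not in these windows. The Rnf213 window ends at 119390148, before the gene start of 119393100 given below from another annotation (GENCODE). That start is therefore not covered. All 6 members matched the table, with 9 windows in all. Of 32851 RefSeq windows of this length, 8.56% (2812) held the loose core, 3.44% (1131) the strict core and 8.30% (2726) the gamma core. Each core is thus found in many windows besides these, and the members were not tested against these shares. Among windows of genes in the deposited table the shares were 6.63%, 2.82% and 6.83%.

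Levels are given on a log2 scale, as in the deposited table, whose values are scaled between libraries but not divided by gene length, so levels are compared between groups and not between genes. The scale is inferred to be regularized log2, in which low values are drawn together, so folds of low genes are understated. Depth per library is unknown. A difference is called when limma's adjusted p, over all genes whose mean was at least 3.32, is under 0.05. All 6 members passed that filter in both systems. In bulk cells, fewer cells of a type and less RNA per cell cannot be told apart.

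Rnf213 (ENSMUSG00000070327, GRCm38 chr11:119393100-119487418, plus strand, 67 exons in its longest transcript of 16716 bases) separated Trim71-KO from Trim71-cond and R595H/R595H from the other clones. In Trim71-cond its level was 9.06 in 1A, 9.39 in 2B, 9.54 in 3A and 9.13 in 3B. In Trim71-KO it was 8.51 in 1A, 8.08 in 2B, 8.17 in 3A and 8.16 in 3B. Every Trim71-KO library was thus below every Trim71-cond library, and 1A was the highest of the former and the lowest of the latter. The means were 9.28 ± 0.22 (SD, n = 4) and 8.23 ± 0.19 (SD, n = 4), a log2 difference of -1.05 ± 0.10 (SE), or 2.07 times lower. Among the members 1 of 6 was called and 1 of 6 did not overlap, where 18.6% of all 9580 genes tested were called and 20.8% did not overlap. The member is Rnf213, which was chosen for this, so nothing is read from the count.

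In the clones, the level of Rnf213 in WT was 8.86 (20/1) and 8.79 (5/2) in C16, 8.78 in C7 and 8.95 in C5. The R595H/+ libraries held 8.78 (20/1) and 8.79 (5/2) in C15, 8.89 in C21 and 8.63 in C23. In R595H/R595H it was 7.93 (20/1) and 8.00 (5/2) in C14, 8.28 in C20 and 7.81 in C24. WT and R595H/+ overlapped, and all R595H/R595H libraries lay below all other clones. The WT clones had a mean level of 8.85 ± 0.09, the R595H/+ clones 8.77 ± 0.13 and the R595H/R595H clones 8.02 ± 0.24 (SD, n = 3 each). R595H/R595H was lower than WT by a log2 difference of -0.83 ± 0.11 (SE), or 1.78 times, and lower than R595H/+ by -0.75 ± 0.11. Of all 9587 genes tested, 3.42% were called between R595H/R595H and WT and 29.7% had groups that did not overlap. Between R595H/R595H and R595H/+, 0.772% were called. Rnf213 had the third lowest difference in R595H/R595H against WT and also in Trim71-KO against Trim71-cond.

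The heterozygous clones were set against the same WT clones that the choice of Rnf213 drew on, so their difference is given as a description too. Rnf213 in R595H/+ differed from WT by -0.08 ± 0.11 (SE) on the log2 scale (95% interval -0.31 to 0.14). limma called 0 of 9587 genes (0%) between R595H/+ and WT, with 734 at an unadjusted p under 0.05. In order of mean level, Rnf213 ran from Trim71-cond through WT, R595H/+ and Trim71-KO to R595H/R595H. WT and R595H/+ overlapped, as did Trim71-KO and R595H/R595H, though levels of different systems also differ in starting cells and handling.

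**Figure D1:**
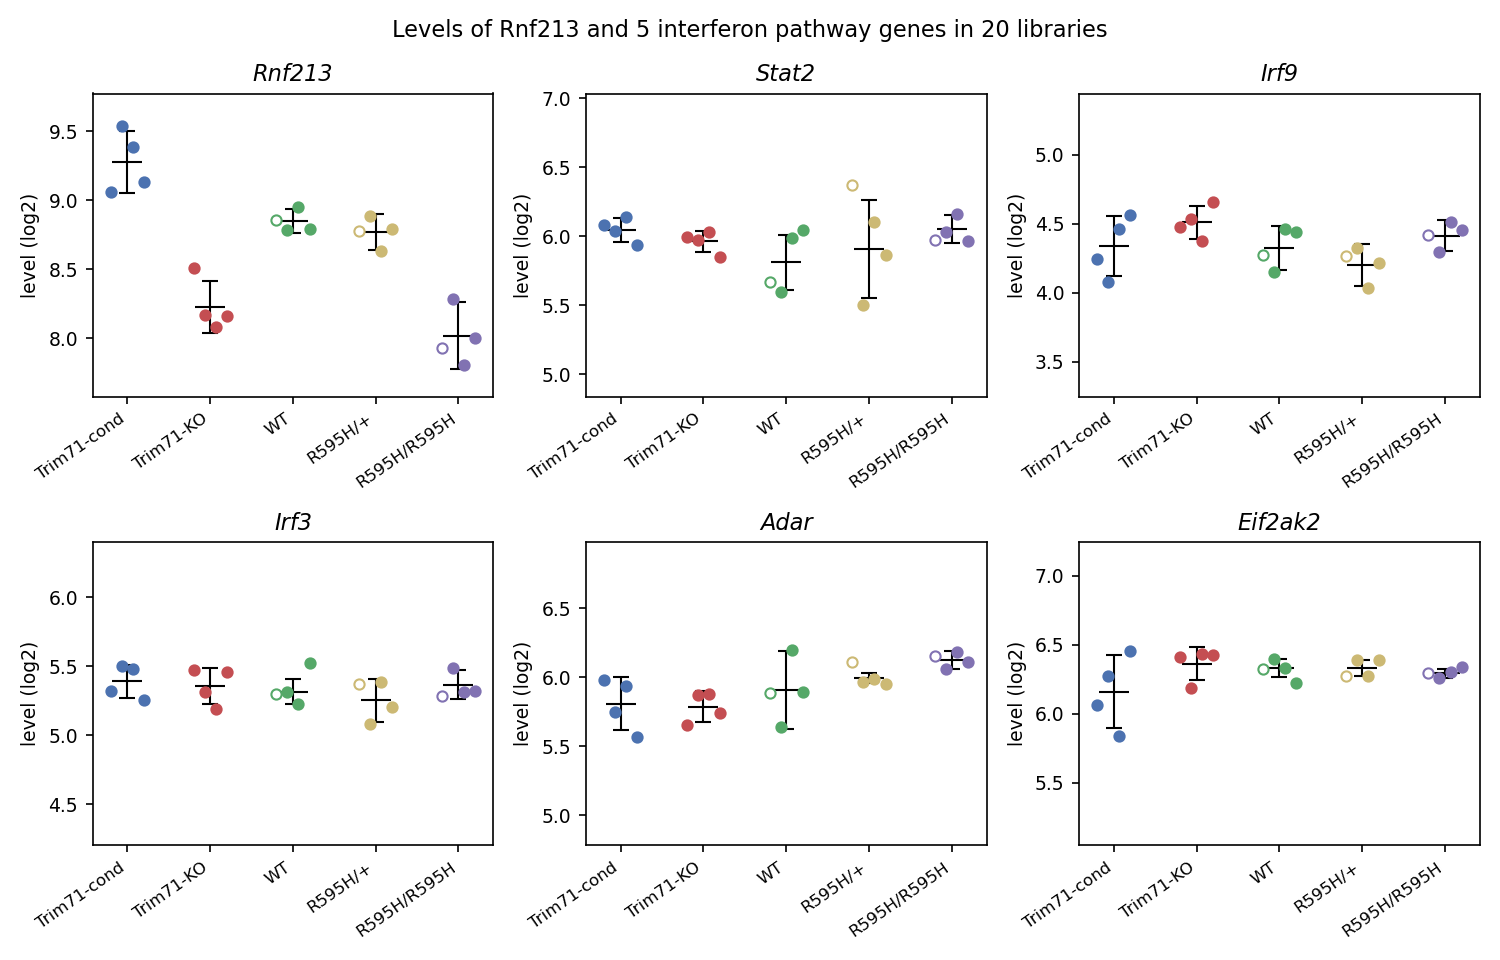
Level (log2 of the deposited values, vertical axis) of the 6 members in every library of the 5 groups (horizontal axis). Points are libraries, open where dated 20/1, and bars give the mean ± SD over 4 libraries or 3 clones. Each panel spans the same log2 range, and only for Rnf213 do Trim71-KO and R595H/R595H stand below the groups they are set against.

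The fall of Trim71 was the same in each code while that of Rnf213 was not. Trim71 itself lay between 8.93 and 9.01 in Trim71-cond and between 7.43 and 7.53 in Trim71-KO, 2.80 times lower on average. Signal thus remained under the label Trim71-KO, and with the deleted stretch not stated it cannot be assigned to intact or deleted transcript. Within a code, Trim71-KO minus Trim71-cond was -1.49 (1A), -1.51 (2B), -1.45 (3A) and -1.47 (3B) on the log2 scale. The matching differences of Rnf213 were -0.55 in 1A, -1.30 in 2B, -1.38 in 3A and -0.98 in 3B. Code 1A thus had the smallest difference of Rnf213 at a like difference of Trim71. Over all genes tested, the deviations of the Trim71-cond and Trim71-KO libraries of 1A from their group means correlated at -0.89. Opposed deviations in 1A were thus not particular to Rnf213. With 1A left out of both groups the mean difference was -1.22, and with 3A left out it was -0.94. In the clones Trim71 moved the other way: at 9.50 ± 0.03 in WT and 9.58 ± 0.04 in R595H/+, it stood at 10.1 ± 0.10 in R595H/R595H (SD, n = 3), a log2 difference of 0.61 ± 0.07 (SE; limma adjusted p 0.000634) from WT. Rnf213 was low in both Trim71-KO and R595H/R595H, with Trim71 low in the former and high in the latter.

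**Figure D2:**
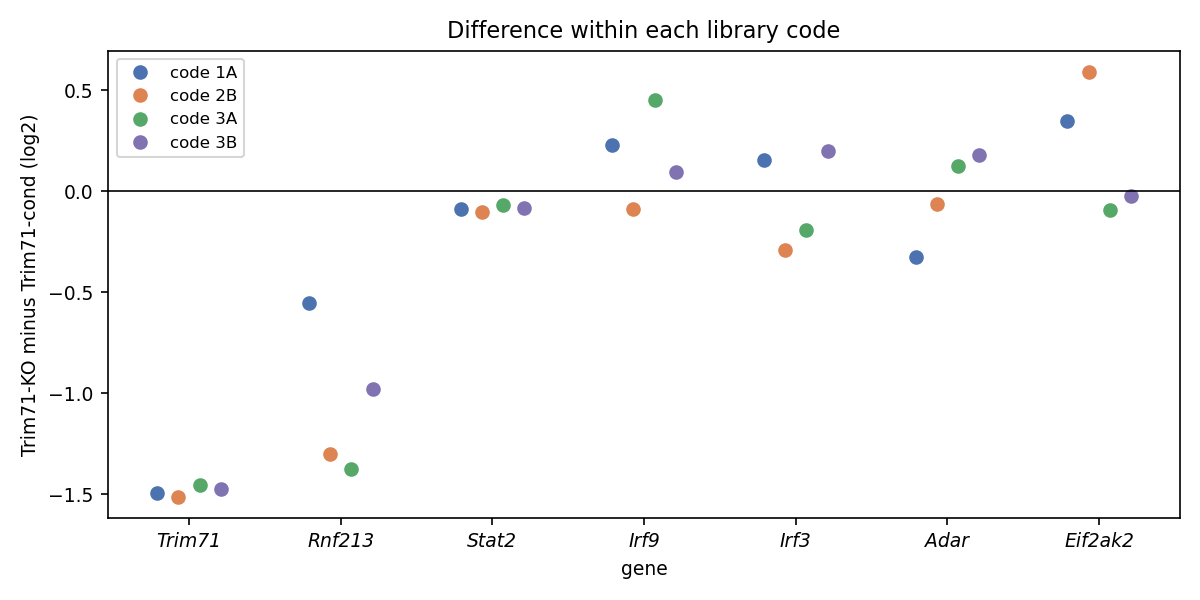
Trim71-KO minus Trim71-cond (log2, vertical axis) within each library code for Trim71 and the 6 members (horizontal axis), 1 point per code. The Trim71 points lie between -1.51 and -1.45, and those of Rnf213 spread from -1.38 to -0.55. Stat2 is slightly negative in every code, and each of the other members has points on both sides of 0.

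Library features that differed between groups are set beside Rnf213. The mean level of 4 Y-linked genes was 6.11 to 6.41 in Trim71-cond and 5.86 to 5.97 in Trim71-KO, without overlap, and 3 of the 4 fell in Trim71-KO (limma; median log2 difference -0.40). Their part in the level of Rnf213 there was not tested. In the clones the mean level of 4 Y-linked genes ranged from 3.84 to 4.55 in R595H/R595H, from 4.16 to 5.92 in R595H/+ and from 4.02 to 6.36 in WT. In WT C16 and C7 the Y-linked mean was 4.02 to 4.49 and Rnf213 was at 8.78 to 8.86. In WT C5 they were 6.36 and 8.95, and no R595H/R595H library had a Y-linked mean above 4.55. With the Y-linked mean as a covariate, the difference of Rnf213 between R595H/R595H and WT was -0.80 ± 0.12 (SE), given as a description. The part of the Y-linked genes in the level of Rnf213 was not tested in the clones either. Lars2 took between 0.334% and 13.2% of the summed linear values of a library, and R595H/R595H C24 had both the highest Lars2 share and the lowest Rnf213 level. Trim71-cond 3A, at 7.57%, had the highest share of the conditional libraries and the highest Rnf213 level (9.54). WT C16 of 5/2 had a share of 6.73% and Rnf213 at 8.79. The part of Lars2 was not tested. Without C24 the difference of Rnf213 between R595H/R595H and WT was -0.73. Without C20 it was -0.97, and with all libraries set to equal totals it was -0.87. For the clones sequenced on 2 dates, C14 minus C16 was -0.93 on 20/1 and -0.79 on 5/2. Rnf213 differed by at most 0.07 between dates of a clone, while Stat2 differed by up to 0.51.

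The identity of the cells was checked by markers. All 10 stem cell markers were rows of the table and 9 passed the filter, with means up to 11.5 for Tdgf1. Their summed level was 13.1 to 13.2 in Trim71-cond and 13.3 to 13.4 in Trim71-KO, without overlap. Of the 9 tested, 3 rose in Trim71-KO (Nanog by 0.39 ± 0.05, Tdgf1 by 0.30 ± 0.07 and Sox2 by 0.23 ± 0.06, SE) and Zfp42 fell by 0.20, with a median of 0.12. In the clones the sums overlapped, at 13.3 to 13.5 in WT, 13.2 to 13.4 in R595H/+ and 13.3 to 13.4 in R595H/R595H. Between R595H/R595H and WT limma called 0 of 9, with 4 at an unadjusted p under 0.05, as were 2018 of all 9587 genes tested. Of 10 fibroblast or feeder markers 4 were rows and 0 passed the filter, with collagen genes Col1a1, Col1a2 and Col3a1 not among them, and their summed level was 3.92 to 4.04 in the conditional libraries and 3.83 to 4.01 in the clones. Of 10 immune markers 2 were rows, and Ptprc, which marks all blood leukocytes, was not among them. Their summed level was 4.26 to 4.56 in Trim71-cond, 4.26 to 4.46 in Trim71-KO, 4.37 to 4.44 in WT, 4.25 to 4.47 in R595H/+ and 4.24 to 4.29 in R595H/R595H. Of 8 endothelial markers 5 were rows, led by Pecam1, which stem cells also express. Their sum was 8.95 to 9.19 in Trim71-cond, 8.72 to 9.08 in Trim71-KO, 8.88 to 8.98 in WT, 8.88 to 9.07 in R595H/+ and 8.63 to 8.69 in R595H/R595H. Pecam1 was lower by -0.30 ± 0.07 (SE; limma adjusted p 0.0323) and the macrophage gene Cd68 by -0.35 ± 0.08 (adjusted p 0.0364) in R595H/R595H than in WT. In Trim71-KO Pecam1 fell by 0.28 (adjusted p 0.0168) and the receptor gene Tek rose by 0.32 ± 0.10 (adjusted p 0.0222), of 3 endothelial markers tested. The part of these marker genes in the level of Rnf213 was not tested.

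Stat2 and Irf9 encode subunits of the complex that carries the type I interferon signal to the nucleus, and neither was called in any comparison. Stat2 (chr10:128270559-128292849, plus strand) was at 6.08 in 1A, 6.14 in 2B, 6.04 in 3A and 5.93 in 3B of Trim71-cond. In Trim71-KO it was at 6.00 in 1A, 6.03 in 2B, 5.97 in 3A and 5.85 in 3B. The groups overlapped, although each Trim71-KO library was slightly below the Trim71-cond library of its code. The log2 difference was -0.09 ± 0.08 (SE; 95% interval -0.25 to 0.08; limma adjusted p 0.483). Among the clones Stat2 was at 5.67 (20/1) and 6.05 (5/2) in C16, 5.60 in C7 and 5.99 in C5 of WT. It was at 6.37 (20/1) and 5.86 (5/2) in C15, 5.50 in C21 and 6.11 in C23 of R595H/+, and at 5.97 (20/1) and 5.96 (5/2) in C14, 6.03 in C20 and 6.16 in C24 of R595H/R595H. R595H/+ held both the highest and the lowest library. R595H/R595H minus WT was 0.24 ± 0.15 (SE; 95% interval -0.07 to 0.55; adjusted p 0.366), and R595H/+ minus WT was 0.09 ± 0.15 (adjusted p 0.929).

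Irf9 (chr14:55603571-55610030, plus strand) had the lowest values relative to the filter, so it is the member most subject to shrinkage. It was at 4.25 in 1A, 4.46 in 2B, 4.08 in 3A and 4.57 in 3B of Trim71-cond. The Trim71-KO values were 4.48 in 1A, 4.38 in 2B, 4.53 in 3A and 4.66 in 3B. The groups overlapped, with Trim71-KO higher in all codes but 2B, and the difference was 0.17 ± 0.10 (SE; 95% interval -0.04 to 0.38; limma adjusted p 0.249). In the clones the mean of WT was 4.32 ± 0.16, that of R595H/+ 4.20 ± 0.15 and that of R595H/R595H 4.41 ± 0.11 (SD, n = 3). These 3 groups overlapped. R595H/R595H differed from WT by 0.09 ± 0.11 (SE; adjusted p 0.665) and from R595H/+ by 0.21 ± 0.11 (adjusted p 0.289).

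Irf3 (chr7:44997648-45002848, plus strand), the transcription factor switched on by the sensors, held an even level across the 20 libraries. It was at 5.32 in 1A, 5.48 in 2B, 5.50 in 3A and 5.26 in 3B of Trim71-cond, and at 5.47 in 1A, 5.19 in 2B, 5.31 in 3A and 5.46 in 3B of Trim71-KO. Codes 1A and 3B were the lower ones in Trim71-cond and the higher ones in Trim71-KO, and the mean difference was -0.03 ± 0.09 (SE; 95% interval -0.22 to 0.16; limma adjusted p 0.839). WT clones had a mean of 5.32 ± 0.09, R595H/+ clones 5.25 ± 0.16 and R595H/R595H clones 5.37 ± 0.10 (SD, n = 3). R595H/R595H minus WT was 0.05 ± 0.10 (SE; 95% interval -0.16 to 0.27; adjusted p 0.813).

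Adar (chr3:89715022-89753446, plus strand), which edits adenosine to inosine in double-stranded RNA, did not differ beyond the spread in the conditional cells. It was at 5.98 in 1A, 5.94 in 2B, 5.75 in 3A and 5.56 in 3B of Trim71-cond, and at 5.65 in 1A, 5.88 in 2B, 5.87 in 3A and 5.74 in 3B of Trim71-KO. The difference was -0.02 ± 0.09 (SE; 95% interval -0.22 to 0.18; limma adjusted p 0.906). In WT it was at 5.89 (20/1) and 5.89 (5/2) in C16, 5.64 in C7 and 6.20 in C5. R595H/+ held 6.11 (20/1) and 5.95 (5/2) in C15, 5.96 in C21 and 5.99 in C23, and R595H/R595H held 6.15 (20/1) and 6.11 (5/2) in C14, 6.06 in C20 and 6.19 in C24. By clone means, R595H/R595H lay above R595H/+ without overlap, but WT C5 lay above both. The share of all genes without overlap was not counted for R595H/R595H against R595H/+, so nothing is read from this. Between R595H/R595H and WT that share was 29.7%. R595H/R595H minus WT was 0.22 ± 0.12 (SE; 95% interval -0.03 to 0.46; adjusted p 0.296), and R595H/R595H minus R595H/+ was 0.13 ± 0.12 (adjusted p 0.575).

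Eif2ak2 (chr17:78852564-78882573, minus strand) encodes PKR, which phosphorylates the translation factor eIF2 on binding double-stranded RNA. Its level was 6.06 in 1A, 5.84 in 2B, 6.28 in 3A and 6.45 in 3B of Trim71-cond. In Trim71-KO it was 6.41 in 1A, 6.43 in 2B, 6.18 in 3A and 6.43 in 3B. The Trim71-cond libraries were the more widely spread, and the groups overlapped. The difference was 0.21 ± 0.10 (SE; 95% interval -0.01 to 0.42; limma adjusted p 0.176). The WT clones had a mean of 6.33 ± 0.06, as did those of R595H/+ (6.33 ± 0.06), and those of R595H/R595H 6.29 ± 0.03 (SD, n = 3). The clones of each genotype lay close together, and R595H/R595H minus WT was -0.04 ± 0.08 (SE; 95% interval -0.21 to 0.13; adjusted p 0.819).

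**Figure D3:**
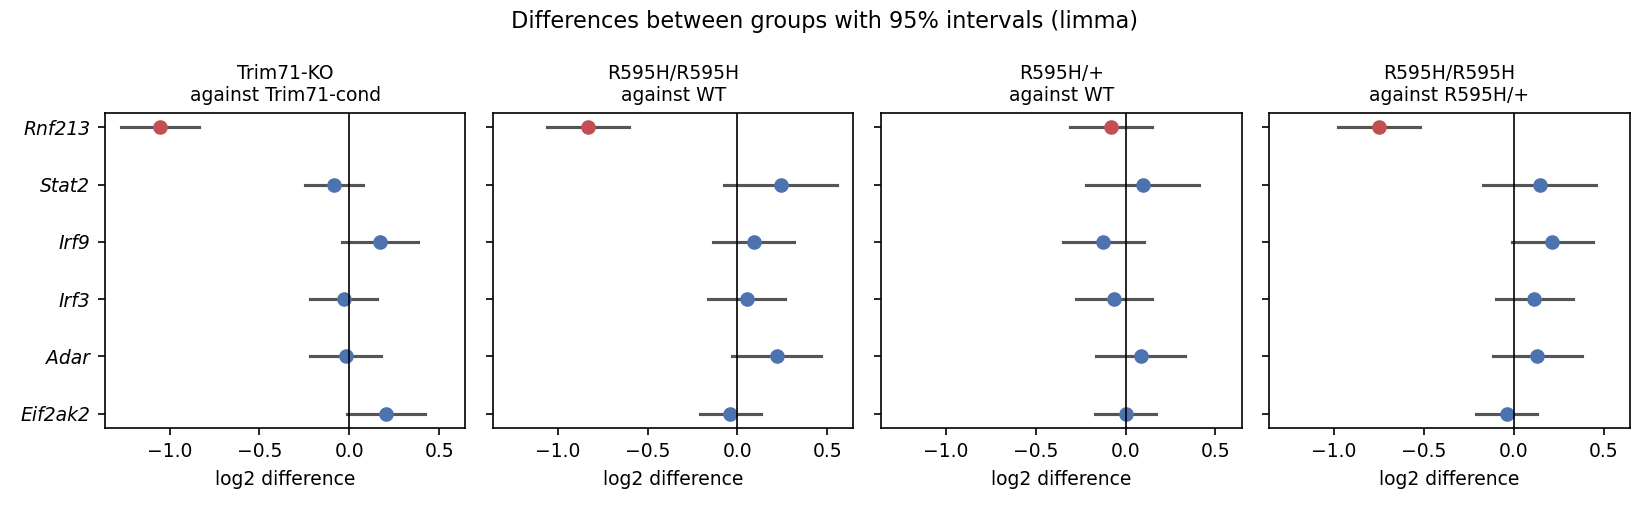
Log2 difference (horizontal axis) of the 6 members in 4 comparisons (panels), with 95% intervals from limma. In 3 panels Rnf213 stands apart to the left, at -1.05, -0.83 and -0.75, and in R595H/+ against WT its interval crosses 0 like that of every other member. Rnf213 was chosen for its falls, so its intervals are shown as descriptions.

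None of the 5 members other than Rnf213 was called in Trim71-KO against Trim71-cond, R595H/R595H against WT, R595H/+ against WT or R595H/R595H against R595H/+ (limma; 0 of the 5 at an unadjusted p under 0.05 in each). The intervals of these differences stay within -0.35 and 0.55 on the log2 scale, so the data allow changes of that size. The difference of effects (that of Trim71-KO minus that of R595H/R595H), which carries the difference between systems as well, was called for 1.42% of 9585 genes and for 0 of these 5 members. It was lowest for Stat2, at -0.33 ± 0.16 (SE; limma adjusted p 0.296). For Rnf213 the 2 effects were -1.05 and -0.83, and their difference was -0.22 ± 0.17 (SE; 95% interval -0.56 to 0.13).

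The other genes of the pathway were taken from 8 lists holding 202 genes, of which 156 were rows of the table and 118 were tested in the conditional cells. In Trim71-KO 11 of the 118 rose and 17 fell, where 9.24% of all genes tested rose and 9.37% fell. The share that fell was 14.4%, and the median log2 difference was -0.05, beside 0.00 over all genes tested. In R595H/R595H against WT, 1 of 119 rose and 0 fell (limma; 3.42% of all genes called), with a median of -0.02. In R595H/+ against WT and in R595H/R595H against R595H/+ limma called 0 of 119, with 6 and 21 at an unadjusted p under 0.05. Of all 9587 genes tested, 734 and 1793 had such a p in these comparisons. In R595H/R595H against WT 2018 of them did, which also applies to the lists below. A replicate block by code lowered the count in Trim71-KO from 28 to 22 (8 higher, 14 lower), and leaving out code 2B from both groups lowered it to 11. Without Trim71-cond 3A it was 13, without 3A in both groups 13, without 3B in both groups 16, and without 2B of Trim71-cond or of Trim71-KO 17.

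At the receptor, 6 of 15 listed ligands and receptors were rows of the table, all of them receptor chains. Of the 3 tested in Trim71-KO, limma called 0, and 0 had an unadjusted p under 0.05: Ifnar1, a chain of the type I interferon receptor, differed by -0.05 ± 0.07 (SE), its partner Ifnar2 by 0.10 ± 0.08 and the interferon-gamma receptor chain Ifngr2 by 0.11 ± 0.09 on the log2 scale. In R595H/R595H against WT 0 of 4 were called and 1 had an unadjusted p under 0.05, Ifnar2 at 0.24 ± 0.08 (SE; limma adjusted p 0.0993). Among 13 receptor kinases, STATs and other IRFs, Irf1, an activator of interferon-stimulated genes, fell by 0.28 in Trim71-KO (adjusted p 0.027; blocked by code, 0.0527) and differed by -0.32 in R595H/R595H (adjusted p 0.0772).

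Of the 8 lists, the interferon-stimulated genes had the largest share of falls in Trim71-KO. Of 71 listed, 47 were rows of the table and 26 were tested. Of these 0 rose and 7 fell, or 26.9%, beside 9.37% of all genes tested, and the median difference was -0.08. Rows below the filter included Rsad2, Oas3 and Oas2, with means of -0.01, 0.30 and 0.73 in Trim71-cond. The share thus holds for the listed genes above the filter, not for the whole list. The membrane restriction factor Ifitm1 had a mean of 5.91 ± 0.19 in Trim71-cond and 5.36 ± 0.15 in Trim71-KO (SD, n = 4), a log2 difference of -0.55 ± 0.10 (SE; limma adjusted p 0.000783). Dtx3l, a ubiquitin ligase, fell from 5.17 ± 0.05 to 4.62 ± 0.20, by -0.55 ± 0.10 (adjusted p 0.000579), and Parp9, the protein it pairs with, by -0.37 ± 0.10 (adjusted p 0.0133). The helicase gene Znfx1, whose product senses viral RNA, fell from 6.75 ± 0.03 to 6.26 ± 0.08, by -0.49 ± 0.07 (adjusted p 8.71e-05). H2-D1 and H2-K1, class I antigen-presenting molecules, each fell by 0.32, with adjusted p of 0.011 and 0.0164. They are close paralogs whose reads may be split between them by the counting. Ifi35 fell by 0.25 (adjusted p 0.0279; blocked by code, 0.078, which leaves 6 lower). The groups of each of these 7 genes did not overlap, beside 20.8% of all genes tested. They were named for being called, so the lack of overlap adds little. The other 19 differed by -0.23 to 0.22 and were not called.

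In R595H/R595H 0 of the 26 were called (limma), with a median difference of -0.04, and 7 had an unadjusted p under 0.05, as did 2018 of all 9587 genes tested. Znfx1 had a mean of 6.45 ± 0.14 in WT, with R595H/+ at 6.36 ± 0.06 and R595H/R595H at 6.11 ± 0.04 (SD, n = 3), a difference from WT of -0.34 ± 0.09 (SE; adjusted p 0.0506). Ifitm1 differed by -0.37 ± 0.12 (adjusted p 0.106) and Trim56, a ubiquitin ligase, by -0.37 ± 0.11 (adjusted p 0.0888). Dtx3l differed by -0.08 ± 0.10 and H2-D1 by 0.14 ± 0.10, unlike their falls in Trim71-KO. For these the difference of effects was -0.47 ± 0.14 (SE; adjusted p 0.0752) for Dtx3l and -0.47 ± 0.13 (adjusted p 0.0601) for H2-D1, so the difference between systems did not pass the threshold. Without code 2B in both groups 3 of the 7 falls in Trim71-KO were called. The other 4 then differed by -0.34 (Parp9), -0.30 (H2-D1), -0.29 (H2-K1) and -0.25 (Ifi35), with adjusted p from 0.0607 to 0.0824.

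**Figure D4:**
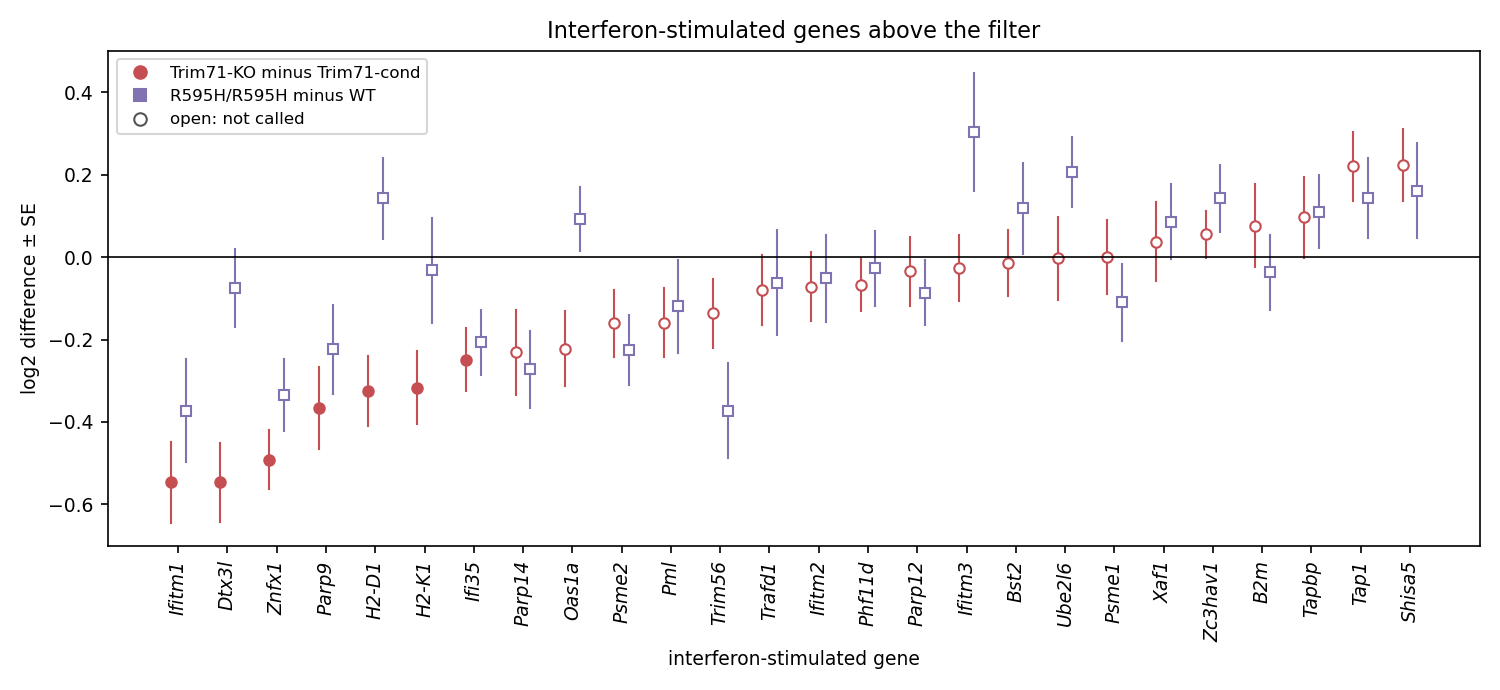
Log2 difference ± SE (vertical axis) of the 26 tested interferon-stimulated genes (horizontal axis) in Trim71-KO against Trim71-cond (circles) and R595H/R595H against WT (squares), filled where called. The 7 filled circles run from Ifitm1 at -0.55 to Ifi35 at -0.25, and every square is open.

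Of 13 upstream sensors and adaptors, 3 rose and 2 fell in Trim71-KO. For this and the next lists, 9.24% of all genes tested rose and 9.37% fell, 18.6% in either direction, and the small counts are read as values of the named genes, not as changes of a group. Ddx58, which encodes the RNA sensor RIG-I, rose by 0.34 ± 0.10 (SE; limma adjusted p 0.0163), the adaptor Traf3 by 0.28 ± 0.09 (adjusted p 0.0302) and the kinase Tbk1 by 0.21 ± 0.07 (adjusted p 0.0447). Rnf135, which ubiquitylates RIG-I, fell by 0.43 (adjusted p 0.00224) and Rnaseh2a, the catalytic subunit of RNase H2, by 0.27 (adjusted p 0.0102). With the replicate block Traf3 (adjusted p 0.0632) and Tbk1 (adjusted p 0.101) were no longer called. In R595H/R595H 0 of 13 were called (limma; 5 at an unadjusted p under 0.05), and the signalling adaptor Mavs differed by 0.33 ± 0.11 (adjusted p 0.0947). Of 16 negative regulators 3 rose and 1 fell (18.6% of all genes called): Socs2 rose by 0.47 ± 0.09 (adjusted p 0.00152), Socs3 by 0.37 ± 0.11 (adjusted p 0.027) and Pias2 by 0.36 ± 0.05 (adjusted p 0.000144), and Pias1 fell by 0.33 (adjusted p 0.00927). SOCS proteins block receptor kinases, and PIAS proteins are SUMO ligases that act on STATs, and Socs3 is also a target of LIF, which was in the medium.

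Adar and Eif2ak2 belong to wider groups that bind double-stranded RNA or regulate eIF2. Of 19 other binding and editing genes, 3 rose in Trim71-KO and 2 fell (18.6% of all genes called). The 5′ exonuclease Xrn1 rose by 0.21 ± 0.06 (SE; limma adjusted p 0.0246), the mitochondrial exonuclease Pnpt1 by 0.18 ± 0.05 (adjusted p 0.0201) and Zfr by 0.17 ± 0.06 (adjusted p 0.044; blocked by code, 0.087). Tarbp2, a partner of Dicer that also inhibits PKR, fell by 0.34 (adjusted p 0.00876) and Ilf2 by 0.19 (adjusted p 0.0441). Of 17 genes around eIF2, 0 rose and 3 fell, or 17.6%, near the 18.6% of all genes called. Those 3 encode subunits of the exchange factor eIF2B: Eif2b3 fell by 0.26 (adjusted p 0.0366), Eif2b2 by 0.24 (adjusted p 0.0469; blocked by code, 0.0836) and Eif2b5 by 0.18 (adjusted p 0.0443). Among 12 genes of RNF213 partners and lipid droplet proteins, 2 were called: the ubiquitin-conjugating enzyme Ube2d3 rose by 0.32 ± 0.05 (adjusted p 0.000313) and Ube2l3, which passes ubiquitin to RNF213, fell by 0.33 (adjusted p 0.0161). In R595H/R595H 0 of 19, 0 of 17 and 0 of 12 were called (limma), with 6, 2 and 4 at an unadjusted p under 0.05. Xrn1 differed there by -0.25 ± 0.07 (adjusted p 0.057), and it is the pathway gene whose 2 effects differed, by 0.46 ± 0.10 (SE; adjusted p 0.0114).

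Genes with a pattern like that of Rnf213 were ranked by Pearson's r over 17 values (8 libraries and 9 clones, each system centred on its own mean), which share the groups, so r is a description. Among 9530 genes, the highest were 2210016F16Rik (r = 0.942), Rpl39l (0.933), Prex2 (0.931), Mcm3 (0.923), Liph (0.921) and Ppcs (0.916). Within groups, after each group's mean was taken out, r was 0.859 for Ppcs and 0.832 for Prex2 but 0.395 for Rpl39l. Rpl39l, a ribosomal protein gene, had a mean of 7.02 ± 0.08 in Trim71-cond and 6.39 ± 0.05 in Trim71-KO (SD, n = 4), and its clone means were 6.56 ± 0.12 (WT), 6.57 ± 0.11 (R595H/+) and 6.20 ± 0.10 (R595H/R595H; SD, n = 3). The most opposed patterns were those of Polh (r = -0.953), Oxct1 (-0.951) and Dgkh (-0.949). Oxct1, which encodes the enzyme that activates ketone bodies, rose from 7.58 ± 0.07 to 8.14 ± 0.03 in Trim71-KO (SD, n = 4). Its clone means were 7.67 ± 0.03 (WT), 7.90 ± 0.03 (R595H/+) and 8.27 ± 0.16 (R595H/R595H; SD, n = 3). R595H/+ differed from WT in Oxct1 by 0.23 ± 0.08 (SE; limma adjusted p 0.567) and was not called. The other members were far from this pattern, with r from -0.497 for Irf9 through -0.326 for Eif2ak2, -0.232 for Adar and -0.131 for Stat2 to 0.07 for Irf3.

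Of the nearest genes on either side of Rnf213 on chromosome 11, only Endov and Rptor, both after it, were tested in Trim71-KO. Neither was called. The side before Rnf213 is not covered there, and for R595H/R595H only Rptor is given. Rptor encodes a subunit of a complex that holds the growth kinase mTOR, and it starts 115487 bases after Rnf213. It differed by 0.11 ± 0.08 (SE; limma adjusted p 0.354) in Trim71-KO and by -0.18 ± 0.11 (adjusted p 0.363) in R595H/R595H. Endov, which starts 3929 bases after it, differed by 0.05 ± 0.08 (adjusted p 0.707) in Trim71-KO. Slc26a11, Sgsh, Card14 and Nptx1 were below the filter in the conditional cells, at means of 3.04, 1.20, 0.32 and 0.86 in Trim71-cond and 3.07, 1.17, 0.32 and 0.96 in Trim71-KO. An antisense transcript, A930037H05Rik, overlaps Rnf213 from 119448788 to 119491298 and has no row of its own in the table. The sources used here do not say whether the counting used strand, so reads of the 2 cannot be told apart.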

How the data were processed

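Libraries were made with a TruSeq v2 kit and read in pairs, per the labels' protocols. The deposited table holds 1 normalized score per gene and library, on what was inferred to be a log2 scale. CASAVA 1.8, STAR and DESeq2 are named in the submitters' processing notes. Build, annotation, counting step and transformation: not given in the sources used here. Medians of the 20 libraries lay between 5.15 and 5.20, and 0 columns belonged to no known sample.

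limma 3.58.1 in R 4.3.3 (lmFit, eBayes with trend and robust, Benjamini-Hochberg) was fitted to the deposited values unchanged and was tested on simulated data. Genes with a mean under 3.32 (10 on the linear scale) were left out. The conditional system had a fit of 8 libraries, the clones a fit of 9 clone values, and the difference of effects a fit of all 17. Members, gene lists and motifs were chosen with earlier results of these data known, and those results support nothing here. Named genes were the members, Trim71, up to 4 genes per list with the smallest p in Trim71-KO and in R595H/R595H, the 6 most and 3 least similar patterns, and 3 neighbours on each side. Parp9, H2-K1, Ifi35, Ilf2, Ube2d1, Lars2, the markers and A930037H05Rik were named after their values were seen. Some genes that the rule names are not reported here.

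Dates of the clones' libraries are those of their titles, from which most day tags in the labels differ. The code's digit matches the day in the labels, so libraries of the same code share a day, as do those of 3A and 3B. The labels do not state that libraries of the same code are pairs. The main fit was therefore unpaired, with the code as a block in an alternative. Deviations of same-coded libraries correlated at -0.89 (1A), -0.09 (2B), -0.12 (3A) and 0.13 (3B). Positions are from GENCODE vM21 (GRCm38) and promoters from RefSeq (GRCm38.p6). Filters, scaling, moderation, blocks, dates, a Y-linked covariate and each replicate left out were tried as alternatives.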

Additional observations from a re-analysis of the deposited data

Results flagged for a closer look

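In 4 of 110 groups of 4 libraries checked (55 genes of the members and lists), the highest or lowest library stood far from the other 3 by Dixon's test at the 95% level, which chance does in about 1 in 20 groups. Eif2ak2 was at 6.18 in Trim71-KO 3A, below 6.41 to 6.43 in the other Trim71-KO libraries. Xrn1 was at 8.48 in Trim71-cond 1A, above 8.32 to 8.34. Zfr was at 8.39 in Trim71-cond 3B, above 8.28 to 8.30. Ube2d1 was at 3.83 in Trim71-KO 2B, above 3.59 to 3.61. Of the pathway genes, Xrn1 also had effects that differed between the systems, with the Trim71-KO effect above the R595H/R595H effect by 0.46 on the log2 scale (limma adjusted p 0.0114). Its adjusted p ranged from 0.00787 to 0.05 over 25 alternatives, and genotype and system cannot be told apart in it.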

How the results depend on the processing

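Differences of the 6 members counted as unchanged in all 625 alternatives of 30 results. For members other than Rnf213, and for Rnf213 in R595H/+ against WT, unchanged means the same side of the threshold. For Rnf213 in the other comparisons no threshold was used, and unchanged means a shift smaller than its SD within groups. Differences that passed in neither setting were counted as unchanged whatever their sign. Of 597 alternatives of 30 list-gene results, 443 kept the call, 154 lost it and 0 reversed. The cause of the shifts below was not tested. In Trim71-KO, 1783 genes were called, 988 to 1634 with a code or library left out (988 without code 2B in both groups, 1132 without 3A, 1126 without 3B). Pathway calls, 28 in all, became 13 to 26 with a library left out and 11 (2B), 13 (3A), 16 (3B) or 27 (1A) with a code left out. Lower interferon-stimulated genes fell from 7 to between 3 and 7, and to 3 with a minimum mean of 5, which removes Dtx3l, Parp9, H2-D1 and Ifi35 from the test. For R595H/R595H against WT, 328 genes (210 higher, 118 lower) became 157 with equal library totals (72 higher, 85 lower), 604 in the joint fit, 191 with 5/2 libraries only and 135 with the Y-linked covariate. Leaving out a clone gave 67 (R595H/R595H C14 left out) to 541 (R595H/+ C21 left out). The fit without a WT clone gave 81 (C16), 68 (C7) and 73 (C5), and that without R595H/+ C15 gave 170 and without R595H/R595H C24 208. Its 1 pathway gene became 0 with a minimum mean of 5, equal totals, 5/2 libraries only or the Y-linked covariate, 2 with quantile normalization or plain eBayes, 4 with the clone as a random block, 8 in the joint fit, and 0 to 4 with a clone left out. Against R595H/+, 74 genes (55 higher, 19 lower) became 19 (11 higher, 8 lower) with equal totals, 116 with no filter, 278 in the joint fit, 213 with the random block, 1 with only these genotypes, 5 with the covariate, and 7 (without C14) to 80 with a clone left out (C15 12, C16 21, C5 21, C21 22, C24 34). The pathway count of 0 there became 1 with no filter, 3 in the joint fit, 3 with the random block, and 0 to 2 with a clone left out. For the difference of effects, 136 genes (70 higher, 66 lower) became 67 with the replicate block, 83 with 5/2 libraries only, and 40 (without WT C7) to 225 (without R595H/+ C21) with a replicate left out (R595H/R595H C14 47, Trim71-cond 2B 71, Trim71-KO 2B 71, Trim71-cond 3A 73, Trim71-KO 3A 78). With equal totals the split was 70 higher and 32 lower. Its pathway count of 1 became 0 to 2. The replicate block by code changed no call of a member. Genes with a mean under 5, Irf9 included, gave no value under the stricter minimum. Depth is unknown, so its limits on low genes could not be given.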
